A study of Homo sapiens with 7 samples.

Results

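Gene expression was compared between 3 sublines that descend from the human prostate cancer line PC-3 without passage through TEM4-18 and 4 cultures of the TEM4-18 lineage. These are all 7 arrays of the series, chosen by their cell line labels and the parent line given for each. TEM4-18 (n = 2 arrays) consists of PC-3 cells collected after they crossed a layer of human lung microvascular endothelial cells in culture. GS683.LALN, from a left axillary lymph node, and JD1203.Lu, from lung, were recovered from mice that had received TEM4-18 by intravenous injection. On the other side, GS672.Ug was recovered from urogenital tissue after injection of PC-3. GS689.Li, from liver, and GS694.LAd, from the left adrenal, were recovered after injection of JD549.Ki, itself a line grown out of kidney tissue of a mouse given PC-3. All 7 cultures express luciferase, received no treatment and grew in DMEM/F12 medium with fetal bovine serum, and each recovered subline has 1 array.

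The labels disagree at 3 points. JD1203.Lu carries JD549.Ki as its source name, the design text places GS683.LALN in the lung, and the description of GS694.LAd gives JD549.Ki as its own name. Grouping followed the cell line field and the stated parent, and the main counts are also given below with JD1203.Lu moved. Neither PC-3 itself nor JD549.Ki has an array in this comparison. Each difference lies between lineages, and which of them had departed from PC-3 cannot be told. The labels do not say whether the TEM4-18 arrays came from separate cultures, and JD549.Ki is the parent of both GS689.Li and GS694.LAd. The p-values therefore measure only the spread between these arrays, part of which may be technical.

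PC-3 is an established androgen-independent line from a prostate cancer metastasis, with mixed epithelial and mesenchymal traits. Leaving a blood vessel requires that a tumour cell attach to endothelium, open its junctions and cross the basement membrane. PC-3 cells carry many chromosome rearrangements, and lines recovered from an animal can be injected again to give further lines. Markers of PC-3 were bright on every array: KRT18 signals ran from 29052 to 38315, VIM from 61696 to 81724 and KRT8 from 2775 to 7665. CTNNA1 (alpha-catenin), whose gene is deleted in PC-3, stayed between 105 and 479. KLK3, the prostate-specific antigen gene that PC-3 is known to lack or to express weakly, was read at 730 to 1347. TMPRSS2, a serine protease of luminal prostate cells on the same list of genes known as absent or low, was not low on every array: it ran from 44.6 in GS683.LALN to 2887 in the first TEM4-18 array, and read 1193 in GS672.Ug.

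Values are MAS5 signals, a linear probe set brightness scaled by array. The trimmed mean was 1500.2 on all arrays, while medians ran from 283.15 to 297.25 in the PC-3-descended sublines and from 239.08 to 259.14 in the TEM4-18 lineage. Where 3 signals of the PC-3-descended sublines are given without names, their order is GS672.Ug, then GS689.Li, then GS694.LAd; 4 signals of the TEM4-18 lineage are in the order TEM4-18 replicate 1, replicate 2, GS683.LALN, JD1203.Lu. Differences are in log2(signal + 46.942), coded as PC-3-descended minus TEM4-18 lineage with n = 3 and n = 4, and errors are standard errors (SE) from limma. A gene was called at a Benjamini-Hochberg adjusted p under 0.05 over 54613 probe sets, and it took the value of its brightest probe set. In limma, 520 of 19775 genes were called (2.63%), 330 higher (1.67% of those tested) and 190 lower (0.961%) in the PC-3-descended sublines. At an unadjusted p under 0.05 there were 3302, of which 2120 were higher and 1182 lower. No called gene overlapped between the groups. Over all genes, every PC-3-descended array lay above every TEM4-18-lineage array for 1926 (9.74%) and below for 1178 (5.96%).

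Among called genes the median size was 1.33 for those higher and 0.97 for those lower. On chromosome 14 the order was the reverse, with 0.93 for higher and 1.28 for lower calls, beside 1.61 and 0.78 elsewhere. Of the 520, 320 were at least 2-fold apart and 40 at least 8-fold. In 60 (11.5%) the lower group was dim on every array, meaning under a signal of 160.5, the 40th percentile of probe set means; 59 of these were higher calls and 1 a lower call. Chromosome 14 held 163 of the calls and only 2 of these dim genes, whereas the other 357 calls held 58. The array nearest to the other group was GS672.Ug for 305 of 520 genes (58.7%) and JD1203.Lu for 199 (38.3%). Root mean square log2 distances were taken over all 54613 fitted probe sets, dim ones included. Arrays of different groups lay 0.722 to 0.810 apart, arrays of the PC-3-descended group 0.640 to 0.723 and those of the TEM4-18 lineage 0.591 to 0.709. The widest distance within the PC-3-descended group thus slightly exceeded the narrowest between groups, and the lineages were not sharply apart on this measure.

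The count of calls depended on the arrays and on the scale. With JD1203.Lu counted by its source name, 8 genes were called higher and 0 lower in limma, beside 1649 and 842 at an unadjusted p under 0.05, and 3 of the 8 were among the 520 and 0 lay on chromosome 14. Leaving out 1 array gave 98 to 484 higher and 73 to 326 lower calls, the fewest without GS694.LAd and the most without GS672.Ug. With GS689.Li and GS694.LAd averaged and the TEM4-18 arrays averaged, 46 were higher and 29 lower, and all 75 were among the 520. Centring each array on its median turned the share of higher calls from 63.5% to 32.3%, with 228 higher and 477 lower, and moved the median difference over all genes from 0.07 to -0.11.

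**Figure D1:**
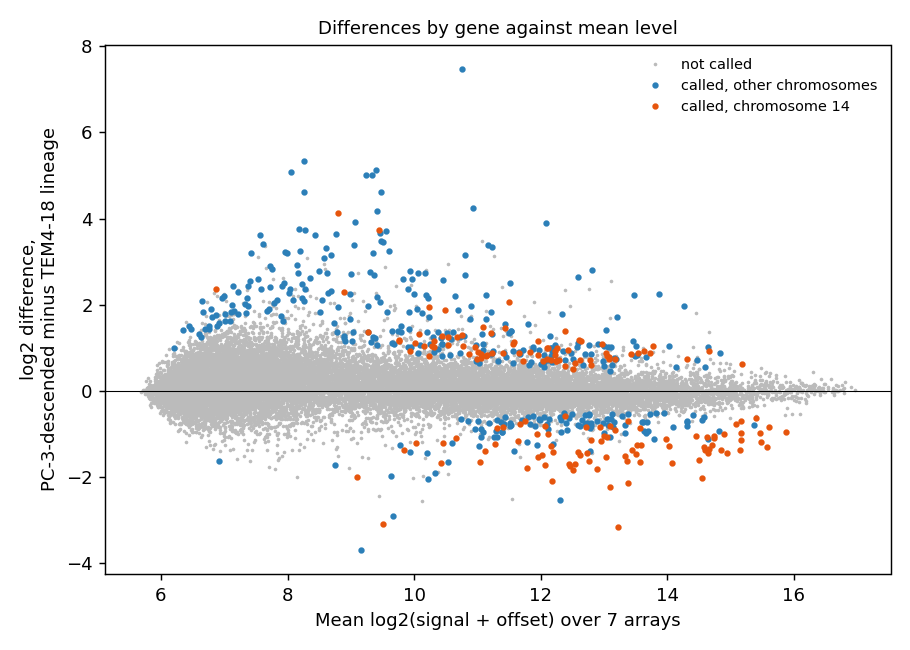
Difference between the groups (vertical axis, log2) against the mean level over 7 arrays (horizontal axis, log2 of signal plus offset), 1 point per gene. Called genes of other chromosomes (blue) reach 7.48 above 0, while those of chromosome 14 (orange) form bands on both sides.

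The widest difference was in HAPLN1, which encodes the link protein that fastens proteoglycans to hyaluronan in pericellular matrix. Its signals were 19544 (GS672.Ug), 38339.5 (GS689.Li) and 49756 (GS694.LAd), against 39.9 and 228 in the TEM4-18 arrays, 108 in GS683.LALN and 287 in JD1203.Lu. The groups stood far apart, with a gap of 5.88 between their nearest arrays and a difference of 7.48 ± 0.45 (limma adjusted p = 8.82e-05). All 3 further probe sets of HAPLN1 were called higher too, at 6.51 to 7.38. DNAJC15, a co-chaperone of the mitochondrial inner membrane that is often lost in tumours by promoter methylation, read 5379 and 6179 in GS672.Ug and GS689.Li but 437 in GS694.LAd. It read 12.1 to 18.7 in the TEM4-18 lineage, where all 4 arrays were dim, and the difference was 5.34 ± 0.75 (limma adjusted p = 0.00526). GS694.LAd was the lowest of its group by a wide margin, and the other 2 probe sets of DNAJC15 (2.22 and 1.21) were not called. WDR72, a WD-repeat protein needed for tooth enamel to form, read 13832 (GS672.Ug), 897 (GS689.Li) and 10302 (GS694.LAd), against 78.8 to 176. Without GS694.LAd its difference of 5.13 ± 0.75 (limma adjusted p = 0.00695) missed the threshold, with an adjusted p of 0.0537.

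The promoters of the 3 most raised and 3 most lowered named genes with an entry are shown. MUC5B (-3.70) and LGR5 (-2.90) have no entry, though they fell by more than TRIP6 (-2.53). Each runs from 250 bases before to 50 after the gene start, 5′ to 3′ on the gene's strand, from RefSeq GRCh38.p14, and capitals mark every CG, the dinucleotide that can be methylated. HAPLN1 lies at chr5:83720806-83721105 (minus strand), DNAJC15 at chr13:43023336-43023635 (plus), WDR72 at chr15:53762829-53763128 (minus), L3HYPDH at chr14:59484359-59484658 (minus), PELI2 at chr14:56118161-56118460 (plus) and TRIP6 at chr7:100867137-100867436 (plus).
HAPLN1: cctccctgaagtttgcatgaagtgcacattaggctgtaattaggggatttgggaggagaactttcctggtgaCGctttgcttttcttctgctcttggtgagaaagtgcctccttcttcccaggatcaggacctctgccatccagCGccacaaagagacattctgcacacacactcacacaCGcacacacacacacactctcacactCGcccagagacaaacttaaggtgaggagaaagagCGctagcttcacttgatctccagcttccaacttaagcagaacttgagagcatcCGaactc
DNAJC15: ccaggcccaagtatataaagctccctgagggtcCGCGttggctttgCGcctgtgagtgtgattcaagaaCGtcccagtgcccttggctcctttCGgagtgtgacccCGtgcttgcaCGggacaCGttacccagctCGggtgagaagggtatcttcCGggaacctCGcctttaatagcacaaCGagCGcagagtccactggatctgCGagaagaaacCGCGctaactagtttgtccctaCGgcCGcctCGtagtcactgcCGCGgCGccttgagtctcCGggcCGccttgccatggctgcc
WDR72: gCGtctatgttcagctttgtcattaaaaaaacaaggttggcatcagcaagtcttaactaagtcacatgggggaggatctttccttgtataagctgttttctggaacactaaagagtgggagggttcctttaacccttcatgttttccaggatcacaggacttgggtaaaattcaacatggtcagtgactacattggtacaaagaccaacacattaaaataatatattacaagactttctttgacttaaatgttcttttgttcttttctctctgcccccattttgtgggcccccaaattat
L3HYPDH: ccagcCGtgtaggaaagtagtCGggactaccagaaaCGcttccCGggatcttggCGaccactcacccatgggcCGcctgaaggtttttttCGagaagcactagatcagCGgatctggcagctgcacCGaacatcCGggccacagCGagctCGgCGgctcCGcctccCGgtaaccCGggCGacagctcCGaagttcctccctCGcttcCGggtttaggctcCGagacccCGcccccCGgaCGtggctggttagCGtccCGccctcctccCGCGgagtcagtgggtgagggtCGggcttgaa
PELI2: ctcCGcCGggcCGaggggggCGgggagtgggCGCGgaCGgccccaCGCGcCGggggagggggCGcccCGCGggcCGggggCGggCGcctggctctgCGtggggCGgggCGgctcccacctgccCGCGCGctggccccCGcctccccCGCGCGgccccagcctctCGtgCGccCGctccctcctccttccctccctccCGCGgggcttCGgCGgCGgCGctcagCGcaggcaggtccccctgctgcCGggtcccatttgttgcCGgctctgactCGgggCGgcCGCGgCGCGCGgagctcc
TRIP6: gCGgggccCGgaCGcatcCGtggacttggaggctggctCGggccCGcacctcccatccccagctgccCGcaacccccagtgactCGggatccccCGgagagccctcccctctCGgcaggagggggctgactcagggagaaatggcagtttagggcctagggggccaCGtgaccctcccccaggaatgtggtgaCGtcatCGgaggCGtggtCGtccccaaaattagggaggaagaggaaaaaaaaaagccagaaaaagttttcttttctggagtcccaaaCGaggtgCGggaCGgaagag
These windows held 6, 24, 1, 29, 45 and 18 CG in that order. Of 27305 promoters in the table, 65.6% hold at least as many CG as that of HAPLN1, 33.7% as that of DNAJC15, 95.8% as that of WDR72 and 3.4% as that of PELI2. Of the raised genes shown, HAPLN1 and WDR72 lay under the median of 22 CG over all tested genes with an entry, and DNAJC15 just above it. The E-box CACCTG was searched on both strands, as was the TATA box (TATAAA). The E-box occurs in 20.6% of all the promoters and, here, in that of PELI2 only; the TATA box occurs in 12% and, here, in that of DNAJC15 only. Among called genes with an entry, the E-box was present in 22.6% of 257 higher and 13.2% of 152 lower ones, beside 19.6% of all tested genes, and the median number of CG was 24, 26 and 22. A match of letters is not a binding site, and methylation was not measured.

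Regulators of transcription followed among the raised genes. ZFPM2 (FOG2), a cofactor that binds GATA factors, read 815 (GS672.Ug), 3129 (GS689.Li) and 2836 (GS694.LAd), but only 5.18 to 17.2 in the TEM4-18 lineage. Every array of that lineage was dim, and the difference was 5.08 ± 0.46 (limma adjusted p = 5.82e-04). GATA2 itself, a factor of blood and prostate cells, read 1375, 1415 and 1181 against 19.0, 29.1 and 26.2 in TEM4-18 and GS683.LALN. JD1203.Lu stood between the groups at 247, and the difference was 3.75 ± 0.50 (limma adjusted p = 0.00424). The other GATA2 probe sets moved by 0.04 and 1.14 and were not called, so the probe sets of this gene disagree. Of 17 measured genes of the GATA list 4 rose and 0 fell, with a median of 0.17 beside 0.07 over all genes, which turned to -0.02 on median-centred arrays. This list, like those below, was chosen with earlier results of these data known, and it holds ZFPM2 and GATA2. Counts of lists are read beside 1.67% higher and 0.961% lower over all genes. The other calls were GATA6 (1.36 ± 0.30) and MTA1 of the NuRD complex (0.74 ± 0.15). Both missed the threshold on median-centred arrays, with adjusted p of 0.0637 and 0.0766. The call of GATA6 was lost when any array but JD1203.Lu was left out (adjusted p from 0.0581 to 0.207), and that of MTA1 when any but GS672.Ug was (0.0501 to 0.144).

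TH, tyrosine hydroxylase, which limits the synthesis of catecholamines, read 1793 (GS672.Ug), 3300 (GS689.Li) and 1098 (GS694.LAd), against 18.2 to 66.0 in the other lineage. The TEM4-18 lineage was dim on all 4 arrays, and the difference was 4.63 ± 0.41 (limma adjusted p = 5.41e-04). The line from the adrenal had the lowest TH signal of its group. AKR1C3, the aldo-keto reductase that makes testosterone from androstenedione, read 5922, 11807 and 15867 in the PC-3-descended sublines, 376 and 283 in TEM4-18 and 188 in GS683.LALN. JD1203.Lu, at 2798, lay far above the rest of its lineage and within 1.07 log2 units of GS672.Ug, and the difference was 4.23 ± 0.71 (limma adjusted p = 0.014). AKR1C2 and AKR1C1, neighbours of AKR1C3 on chromosome 10 with near-identical sequence, differed by 3.21 ± 0.66 and 2.56 ± 0.44 on probe sets marked for cross-hybridisation. The 5 probe sets of AKR1C1 disagree: besides the probe set used, 2 were called higher and 2 had the opposite sign. AKR1C2 read 691 in GS672.Ug and 522 in JD1203.Lu, so these arrays nearly met. The calls were fragile: AKR1C3 missed the threshold without the first TEM4-18 array, GS689.Li or GS694.LAd (adjusted p of 0.052, 0.0793 and 0.089). AKR1C1 missed it without the first or second TEM4-18 array, GS689.Li or GS694.LAd (0.0521 to 0.091), and AKR1C2 when any array but GS672.Ug or JD1203.Lu was left out (0.0884 to 0.187) and without cross-hybridising probe sets (0.961). Of 26 measured genes of the list these 3 rose and 0 fell, with a median of 0.23. Among 18 luminal and androgen-regulated genes only DPP4, a serine protease of the prostate epithelium, was called (1.83 ± 0.32; median of the list 0.49). DPP4 missed it without GS689.Li, the first or the second TEM4-18 array (0.0512 to 0.104).

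Surface proteins and growth factors formed the next group. CD24, a small sialoglycoprotein anchored in the outer membrane that binds selectins, read 15997, 20215 and 26202 in GS672.Ug, GS689.Li and GS694.LAd. In the TEM4-18 lineage it read 1757 and 1589 in TEM4-18, 270 in GS683.LALN and 3645 in JD1203.Lu. The lineages did not overlap, the difference was 3.91 ± 0.63 (limma adjusted p = 0.0117), and all 5 other probe sets of CD24 were called higher, at 3.26 to 3.80. Every probe set of CD24 is marked for cross-hybridisation, so these may not be separate measurements. Without GS689.Li or GS694.LAd the CD24 call was lost (adjusted p of 0.0625 and 0.075). TGFA, a ligand of the EGF receptor, read 2035 to 2984 against 254, 210, 16.9 and 112, with a difference of 3.93 ± 0.47 (limma adjusted p = 0.00246). Its signal was lowest by far in GS683.LALN.

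TGFA was 1 of 5 genes that rose among 64 measured receptor kinases and ligands, where 0 fell and the median was 0.32. KDR, the main VEGF receptor of endothelium, read 6380, 4792 and 4535 against 998, 763, 318 and 1327, a difference of 2.69 ± 0.37 (limma adjusted p = 0.005). EPHA3, an ephrin receptor, read 149 to 257 against 2.43 to 12.1 and differed by 2.09 ± 0.28, though its call was lost with the probe sets marked for cross-hybridisation left out (adjusted p = 0.968). FGFBP1, which releases FGF from matrix, and MST1R, the receptor of macrophage-stimulating protein, differed by 1.97 ± 0.32 and 0.82 ± 0.14. FGFBP1 missed the threshold without GS689.Li or GS694.LAd (adjusted p of 0.0736 and 0.0598), and MST1R without these or either TEM4-18 array (0.0607 to 0.0939). On the lower side VEGFA, the ligand of KDR, read 1113, 1229 and 1290 against 2680 to 3824, a difference of -1.29 ± 0.16 (limma adjusted p = 0.0028). Receptor and ligand thus lay on opposite sides of the same contrast. EDN1, the vasoconstrictor peptide endothelin-1, also fell, with signals of 174, 360 and 487 against 924 to 2039 and a difference of -1.98 ± 0.35 (limma adjusted p = 0.0176). Without GS689.Li or GS683.LALN the EDN1 call was lost (adjusted p of 0.0689 and 0.0541), and its other probe sets moved by -0.04 and -1.18, uncalled.

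The remaining genes among the 15 most raised belong to several families. BEX5, a small X-linked signalling adaptor, read 3632 to 5222 against 38.6 to 442 (4.62 ± 0.55, limma adjusted p = 0.00228). BEX1 and BEX4 rose with it (3.46 ± 0.46 and 2.74 ± 0.46). With BEX5 itself counted, 3 of 12 measured BEX and TCEAL genes rose and 0 fell, beside 1.67% and 0.961% of all genes. BEX5, BEX1 and BEX4 lie on the X chromosome. BEX4 missed the threshold without GS689.Li, GS694.LAd or the first TEM4-18 array (adjusted p of 0.0849, 0.0802 and 0.0509). FAM110C, a spindle pole protein, read 3224 to 6383 against 30.4 to 167 (5.01 ± 0.38, limma adjusted p = 2.37e-04). ABTB3 read 2443 to 4588 against 55.9 to 353 (4.17 ± 0.43, limma adjusted p = 0.00117), and GALC, the lysosomal enzyme that splits galactosylceramide, 1244 to 3152 against 63.1 to 141 (4.12 ± 0.37, limma adjusted p = 5.41e-04). In these 3 genes no array of either group came near the other group. PLD5, a phospholipase D relative without the active site, read 3501 to 6293 against 13.7, 2.44 and 39.99 in TEM4-18 and GS683.LALN, but 1656 in JD1203.Lu. That call (5.02 ± 1.01, limma adjusted p = 0.0327) was lost when any array but JD1203.Lu was left out (adjusted p from 0.0756 to 0.137). ITM2A, a membrane protein, read 4459 (GS672.Ug), 296 (GS689.Li) and 1326 (GS694.LAd) against 38.7 to 56.8 (3.76 ± 0.68, limma adjusted p = 0.0208). It missed the threshold without GS694.LAd or either TEM4-18 array (adjusted p from 0.0612 to 0.104).

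**Figure D2:**
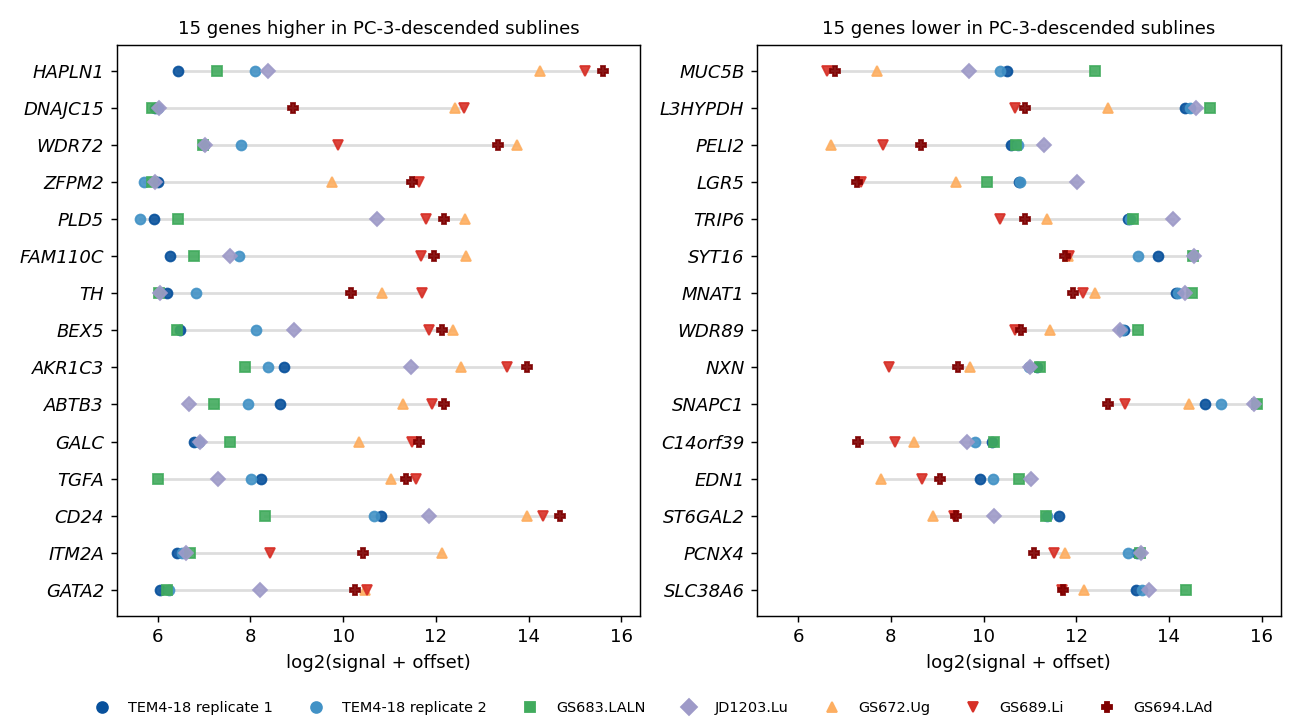
Level of the 15 genes of largest difference each way on the 7 arrays (horizontal axis, log2 of signal plus offset), with 1 symbol per array and a grey line over each gene's range. The red and orange symbols of the PC-3-descended sublines lie to the right of all blue, green and purple ones on the left panel and to the left of them on the right panel. JD1203.Lu is the nearest array of its lineage in PLD5, AKR1C3 and GATA2, and also in others such as HAPLN1, CD24 and MUC5B.

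Among lowered genes, MUC5B, a gel-forming mucin of airway secretions, changed most. It read 161, 51.9 and 64.4 in the PC-3-descended sublines, 1414 and 1261 in TEM4-18, 5365 in GS683.LALN and 782 in JD1203.Lu. GS683.LALN was highest and the groups did not overlap (-3.70 ± 0.55, limma adjusted p = 0.00779), though without GS694.LAd the adjusted p was 0.0501. TRIP6, a zyxin-family adaptor of focal adhesions, read 2590, 1253 and 1843 against 8786, 9045 and 9574 in TEM4-18 and GS683.LALN and 17253 in JD1203.Lu (-2.53 ± 0.27, limma adjusted p = 0.0015). LGR5, the R-spondin receptor of stem cells, read 631, 116 and 106 against 1036 to 4084 (-2.90 ± 0.55, limma adjusted p = 0.0258). GS672.Ug lay nearest to the other lineage, at a gap of 0.68, and the LGR5 call was lost without GS689.Li, GS694.LAd or either TEM4-18 array (adjusted p from 0.0717 to 0.128). NXN (nucleoredoxin), which holds back WNT signalling by binding dishevelled, read 783, 204 and 653 against 1986 to 2337 (-2.05 ± 0.35, limma adjusted p = 0.0146). Without the first TEM4-18 array its adjusted p was 0.0541. LGR5 and NXN were the 2 that fell among 44 measured WNT genes, where 0 rose and the median was 0.14, which turned to -0.04 on median-centred arrays. ST6GAL2, which adds alpha-2,6 sialic acid, read 437 to 628 against 1159 to 3113 (-1.91 ± 0.30, limma adjusted p = 0.0107).

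Another 9 of the 15 most lowered genes lie on chromosome 14, and the chromosome as a whole set the lineages apart. It held 611 of the tested genes (3.09%) and 163 of the 520 calls (31.3%), so 26.7% of its genes were called, beside 2.63% overall. In the other chromosomes the share ran from 0.217% (chromosome 22) to 5.28% (chromosome 18). On chromosome 14 the calls split into 79 higher and 84 lower. The lowered ones clustered: in blocks of 25 neighbouring genes with signal, 20 fell and 0 rose between FRMD6-AS1 and DLGAP5, with a median difference of -1.21. Likewise 20 fell and 0 rose between FBXO34 and C14orf39 (median -1.25), 15 and 0 between SIX4 and CHURC1 (-1.07) and 9 and 0 between GPX2 and ERH (-0.57). Before this stretch the direction changed more than once. Between LTB4R and BAZ1A 10 rose and 4 fell (median 0.48), between SRP54 and RPL10L 4 rose and 6 fell (-0.55), and between LINC00648 and FRMD6 0 rose and 2 fell (-0.24). ARHGAP5, EAPP, CFL2, BAZ1A, SRP54, PPP2R3C, NFKBIA and PAX9 were called lower there, and SEC23A, GEMIN2, TRAPPC6B and FBXO33, which follow them, higher. Just after it, between SLC39A9 and ENTPD5, 4 rose and 6 fell (-0.12). Farther out on either side genes rose. Between BCL2L2 and DHRS1 8 rose and 0 fell (median 0.71), between BBOF1 and IFT43 10 and 0 (0.81), and between HSP90AA1 and KIF26A 9 and 0 (0.74).

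Each PC-3-descended subline showed the stretch by itself. Against the mean of the TEM4-18 lineage, the block from FBXO34 to C14orf39 stood lower in the median by -1.03 (GS672.Ug), -1.43 (GS689.Li) and -1.44 (GS694.LAd). The same block stood at -0.18 and -0.10 in the TEM4-18 arrays, 0.28 in GS683.LALN and 0.01 in JD1203.Lu. GS672.Ug was the least lowered of its group there and in the blocks on either side. The BBOF1 to IFT43 block was raised most in GS672.Ug, with medians of 1.00, 0.72 and 0.69 in the 3 sublines. Gene copy number was not measured on these arrays.

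**Figure D3:**
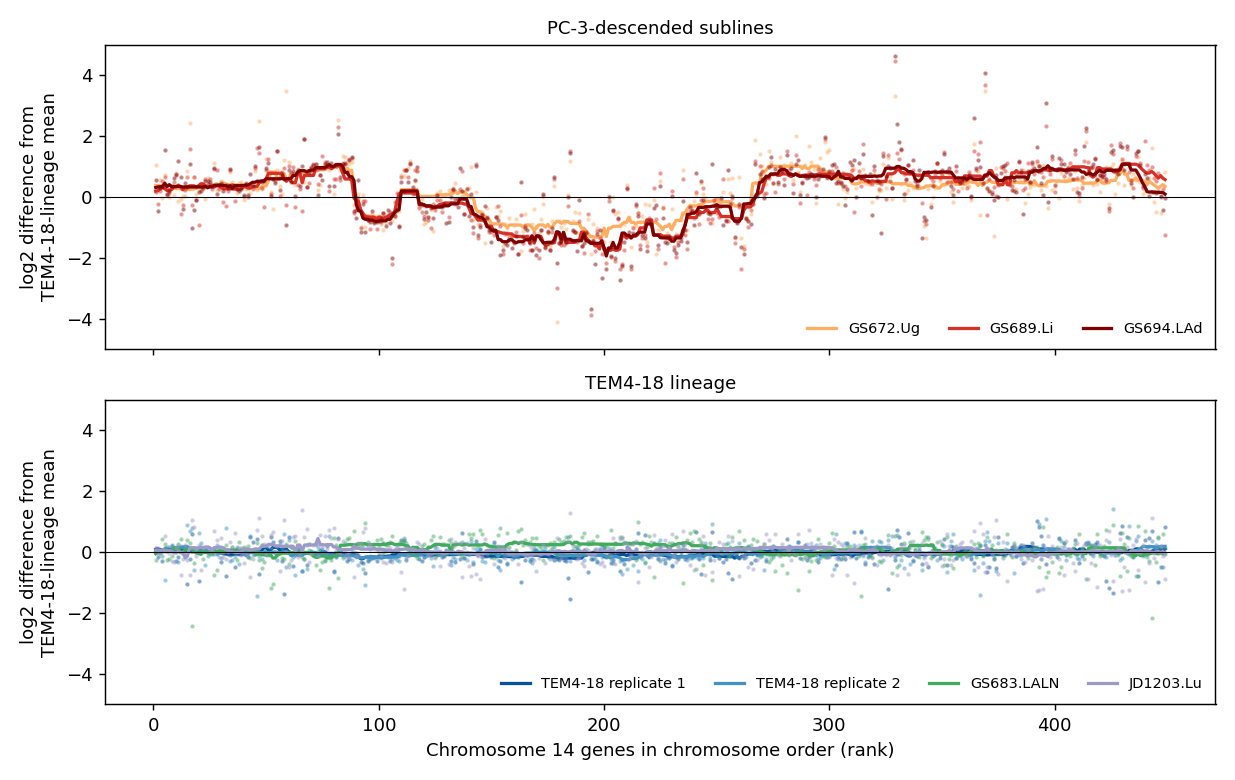
Log2 difference of each array from the mean of the TEM4-18 lineage (vertical axis) for genes with signal in the order of chromosome 14 (horizontal axis, rank), as points with a running median per array. The 3 PC-3-descended sublines (top) dip together in the middle of the chromosome, where the lowest block has medians of -1.03 to -1.44, and lie above 0 towards its end; the 4 TEM4-18-lineage arrays (bottom) stay between -0.18 and 0.28 in that block.

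Members of the lowered stretch have varied roles. L3HYPDH, which dehydrates a hydroxyproline released from collagen, read 6493, 1595 and 1857 against 20822 to 30408 (-3.15 ± 0.39, limma adjusted p = 0.00287). PELI2, a Pellino ubiquitin ligase of Toll-like receptor signalling whose CG-rich promoter is printed above, read 58.3, 182 and 354 against 1503 to 2464 (-3.10 ± 0.39, limma adjusted p = 0.00329). It was the only 1 called among 17 measured genes of its list, and its dimmer probe set (-0.36) was not called. MNAT1, which assembles the CDK-activating kinase, read 5384, 4458 and 3870 against 18105 to 23016 (-2.14 ± 0.14, limma adjusted p = 1.18e-04). The narrow spread of MNAT1 within each lineage gave it one of the smallest p-values. SYT16, WDR89, C14orf39 (a meiotic synapsis protein), PCNX4 and SLC38A6 (an amino acid transporter) fell too, with differences of -2.24, -2.09, -2.01, -1.84 and -1.805, each with no overlap. The probe sets of PCNX4 disagree: with their mean the difference was -0.81 and not called (adjusted p = 0.0947). SNAPC1, a subunit of the complex that starts small nuclear RNA genes, read 22135 in GS672.Ug and 28203 in the first TEM4-18 array, a gap of only 0.35. Its difference of -2.02 ± 0.39 (limma adjusted p = 0.0288) missed the threshold when any array but GS672.Ug or the first TEM4-18 array was left out (adjusted p from 0.0634 to 0.138). SERPINA1, the elastase inhibitor alpha-1 antitrypsin, lies on a raised part of the same chromosome. It read 2537, 2860 and 3796 against 100 to 252 (3.74 ± 0.28, limma adjusted p = 2.21e-04), and 1 of its 3 other probe sets was called too. With cross-hybridising probe sets left out SERPINA1 missed the threshold (adjusted p = 0.393).

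Away from chromosome 14, runs of neighbours that moved one way were shorter. A block of 25 genes on chromosome 8 from CEBPD to UBXN2B had 8 higher and 3 lower calls and a median of 0.78, with all 3 sublines between 0.76 and 0.82 and the TEM4-18 lineage between -0.05 and 0.05. On chromosome 5, 30 of 889 tested genes were higher and 2 lower, with a median of 0.24. The X chromosome had 27 higher and 2 lower of 696, and chromosome 15 had 12 higher and 0 lower of 612. The shares called either way were 3.6% (chromosome 5), 4.17% (X) and 1.96% (chromosome 15), beside 2.63% over all genes. Chromosome 15 thus lay below the share over all genes. In the block from RPS6KA6 to BEX5 on the X chromosome 4 rose and 0 fell (median 0.45). The 24 genes at the start of chromosome 10, which include the AKR1C genes, had 4 higher calls and medians of 0.95 in GS689.Li and 0.75 in GS694.LAd, but -0.09 in GS672.Ug. So the lines from JD549.Ki were raised over that block and GS672.Ug was not; the difference between them was not tested.

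Genes that build or cut extracellular matrix followed, with lists chosen with earlier results of these data known. Counts are read beside 1.67% higher and 0.961% lower over all genes. Among 16 measured plasminogen activators and serpins 4 rose and 0 fell, with a median of 0.26. SERPINB5 (maspin), a serpin known as a suppressor of invasion, read 8477, 7318 and 7644 against 1154 to 1554 (2.50 ± 0.15, limma adjusted p = 8.82e-05). PLAT, tissue plasminogen activator, read 37195, 24238 and 11275 against 1562, 2189 and 2535 in TEM4-18 and GS683.LALN, and 10041 in JD1203.Lu. GS694.LAd and JD1203.Lu nearly met, and the difference of 2.80 ± 0.57 (limma adjusted p = 0.0338) missed the threshold when any array but JD1203.Lu was left out (adjusted p from 0.052 to 0.142). SERPINB8, an inhibitor of furin, rose by 0.93 ± 0.13 and SERPINE2, an inhibitor of thrombin and urokinase, by 0.89 ± 0.16. SERPINE2 missed the threshold without GS689.Li, GS694.LAd or the second TEM4-18 array (adjusted p from 0.0576 to 0.112).

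Of 29 matrix metalloproteinases, ADAMTS proteases and inhibitors 2 rose and 1 fell. ADAMTS6 read 795, 1153 and 598 against 111 to 234 (2.12 ± 0.33, limma adjusted p = 0.0101). MMP14, the membrane-bound collagenase, lies on chromosome 14 and read 3234 to 3431 against 1478 to 2283 (0.87 ± 0.16, limma adjusted p = 0.0222). ADAM17, the sheddase that frees TGFA, fell by 0.70 on the log2 scale. Single arrays ended these calls: GS689.Li that of ADAMTS6 (adjusted p = 0.077) and GS689.Li, GS694.LAd or either TEM4-18 array that of MMP14 (0.0692 to 0.112). ADAM17 missed the threshold when any array but GS672.Ug or the first TEM4-18 array was left out (0.058 to 0.153). Median centring lifted the adjusted p of MMP14 to 0.0535.

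Of 33 measured collagens and laminins 2 rose and 1 fell, with a median of 0.51. HSPG2 (perlecan), a heparan sulfate proteoglycan of basement membranes, read 3023, 4380 and 2898 against 424 to 542 (2.73 ± 0.20, limma adjusted p = 1.81e-04). COL4A6, a collagen IV chain, read 1363, 2837 and 3991 against 330 to 403 (2.61 ± 0.31, limma adjusted p = 0.00233). The TEM4-18 lineage was uniformly low in both, and the calls held whichever array was left out. COL6A3, of the collagen VI network, read 13592 to 15366 against 22152 to 29960 and fell by 0.81 on the log2 scale, a call lost without GS689.Li, GS694.LAd or either TEM4-18 array (adjusted p from 0.053 to 0.0833). HAPLN1 was the only 1 called of 18 hyaluronan genes (median 0.42), and HS3ST1, a heparan sulfate sulfotransferase (2.00 ± 0.35), of 21 syndecans, glypicans and sulfation enzymes. HS3ST1 missed the threshold without the second TEM4-18 array, GS683.LALN, GS689.Li or GS694.LAd (0.0543 to 0.0786).

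Genes of adhesion and cell shape were read next. Among 33 genes of epithelial junctions 0 were called in limma, beside 8 higher and 2 lower at an unadjusted p under 0.05. JUP (plakoglobin) read 1334 to 1845 against 609 to 1138 (0.89 ± 0.23, limma adjusted p = 0.087). OCLN (occludin) and CLDN1 (claudin-1) gave 1.21 ± 0.33 (limma adjusted p = 0.109) and 1.10 ± 0.37 (limma adjusted p = 0.192). Of 13 keratins 0 were called in limma, beside 2 higher and 1 lower at an unadjusted p under 0.05. Over all 19775 genes 2120 were higher and 1182 lower at that limit. Of 26 mesenchymal genes S100A4, a calcium-binding protein tied to motility, rose alone, reading 9506, 25625 and 22364 against 2356 to 3761 (2.64 ± 0.30, limma adjusted p = 0.00186). The median of the mesenchymal list was 0.004, and -0.18 on median-centred arrays. ITGB4, the hemidesmosome integrin, was the only 1 called of 21 integrins (1.68 ± 0.36). Its call was lost on median-centred arrays (adjusted p = 0.0597), whichever array was left out (0.0531 to 0.215) and without cross-hybridising probe sets (0.744). TRIP6 and FERMT2 (kindlin-2, on the lowered stretch of chromosome 14; -1.06 ± 0.14) fell among 32 focal adhesion adaptors, where 0 rose.

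Of 28 measured S100 and annexin genes 25 were above 0, 4 rose and 0 fell. The median was 0.35, beside 0.07 over all genes. On median-centred arrays it was 0.16, beside -0.11 over all genes, and 3 rose. S100P read 251, 785 and 362 against 18.1 to 48.6 (2.56 ± 0.41, limma adjusted p = 0.0107). S100A9 read 109 to 250 against 22.4 to 34.7 (1.57 ± 0.32) and ANXA6 8527 to 10088 against 3475 to 5848 (1.10 ± 0.17). S100A9 is dim in the TEM4-18 lineage, and its call was lost on median-centred arrays (adjusted p = 0.0509) and when any array but GS689.Li was left out (0.0633 to 0.128). ANXA6 missed the threshold without GS689.Li or GS694.LAd (0.0655 and 0.0678) and without cross-hybridising probe sets (0.706).

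Among 39 measured genes of TGF-beta and BMP signalling 5 rose and 0 fell, secreted antagonists among them. The median of the list was 0.15 and turned to -0.03 on median-centred arrays, where 3 rose and 1 fell. FST (follistatin), which traps activin, read 37122, 44061 and 29600 against 6846 to 8975 (2.26 ± 0.15, limma adjusted p = 1.37e-04). TGFB3, on chromosome 14, read 2790 to 3148 against 693 to 837 (1.88 ± 0.15, limma adjusted p = 2.81e-04). Within each lineage the spread of FST and TGFB3 was narrow, and both calls held whichever array was left out. With the mean of its probe sets, however, TGFB3 was at 0.84 and not called (adjusted p = 0.152). NOG (noggin), which traps BMPs, read 5049, 4457 and 3579 against 926 and 842 in TEM4-18, 2448 in GS683.LALN and 1569 in JD1203.Lu (1.68 ± 0.32, limma adjusted p = 0.0263). Both sublines grown from TEM4-18 thus lay between TEM4-18 and the other lineage. The receptor BMPR1B (1.07 ± 0.21) and its effector SMAD1 (0.92 ± 0.20) missed the threshold on median-centred arrays (adjusted p of 0.0627 and 0.08). NOG and SMAD1 missed it when any array but GS683.LALN or JD1203.Lu was left out (0.0625 to 0.116 and 0.0641 to 0.203), and BMPR1B when any but the first TEM4-18 array was (0.0541 to 0.147).

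Among 40 cytokines, chemokines and receptors 4 rose and 0 fell, with a median of 0.37. IL1B, the inflammatory cytokine interleukin-1 beta, read 3157 (GS672.Ug), 11551 (GS689.Li) and 19310 (GS694.LAd), against 755 and 634 in TEM4-18, 530 in GS683.LALN and 1941 in JD1203.Lu (3.33 ± 0.56, limma adjusted p = 0.0145). CXCL8 (interleukin-8), which attracts neutrophils, read 2135, 8008 and 8916 against 779 to 1269 (2.21 ± 0.42, limma adjusted p = 0.0259). In both genes the lines from JD549.Ki were well above GS672.Ug. IL13RA2, a decoy receptor of interleukin-13, read 511, 1550 and 768 against 7.64 to 161 (3.19 ± 0.53), and CXCL6, a relative of CXCL8, 1865 to 3212 against 784 to 1146 (1.34 ± 0.21). All 4 calls were lost without GS689.Li and without GS694.LAd (adjusted p from 0.0612 to 0.131). IL1B was also lost without either TEM4-18 array (0.0519 and 0.0512), and CXCL8 without either TEM4-18 array or GS683.LALN (0.0543 to 0.0841). In the interferon list 2 of 41 rose, ISG20, an RNA exonuclease (1.66 ± 0.25), and OASL (1.82 ± 0.40), and 0 fell. ISG20 was lost without GS689.Li or GS694.LAd (0.0584 and 0.0611). OASL was lost on median-centred arrays (0.0509) and when any array but JD1203.Lu was left out (0.0556 to 0.212). In antigen processing TAP2, the peptide transporter, fell by 1.19 and PSME1, a proteasome activator on chromosome 14, rose by 0.72. TAP2 was lost without GS689.Li, GS694.LAd or the second TEM4-18 array (0.0517 to 0.0846), and PSME1 on median-centred arrays (0.095) and when any array but GS689.Li was left out (0.0575 to 0.167).

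**Figure D4:**
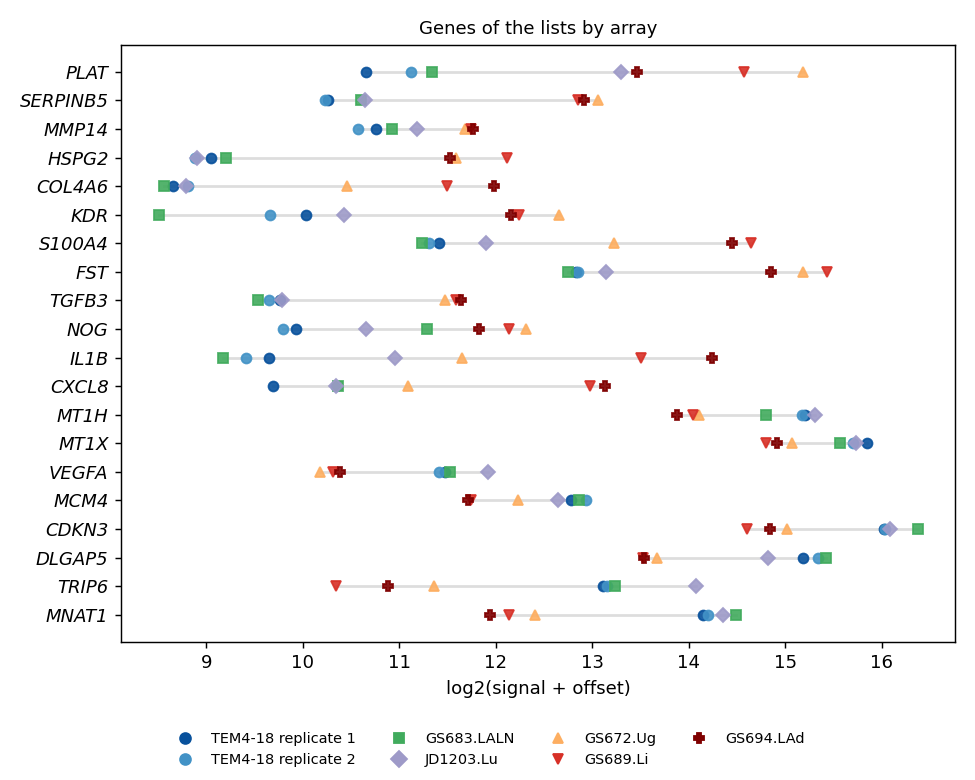
Level of 20 genes of the lists on the 7 arrays (horizontal axis, log2 of signal plus offset), with 1 symbol per array and a grey line over each gene's range. In the upper 12 genes the PC-3-descended sublines lie to the right of the TEM4-18 lineage, with PLAT of JD1203.Lu (10041) close to that of GS694.LAd (11275); in the lower 8 they lie to the left.

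Genes of the cell cycle were read in 3 lists. Of 32 replication licensing genes 1 fell, 0 rose and 2 were above 0, with a median of -0.25 beside 0.07 over all genes; on median-centred arrays, where the median over all genes was -0.11, 4 fell. The 1 that fell was MCM4, a helicase subunit, with signals of 4766, 3380 and 3309 against 6343 to 7790 (-0.91 ± 0.15, limma adjusted p = 0.013). MCM4 missed the threshold without GS689.Li, GS694.LAd or the second TEM4-18 array (adjusted p of 0.0788, 0.0821 and 0.0549). It also missed it without cross-hybridising probe sets (0.1) and with the mean of its probe sets, where it was at -0.51 (0.113). Of 37 mitosis genes 1 fell, 0 rose and 6 were above 0, with a median of -0.22, and 4 fell on median-centred arrays. The call on the main scale was DLGAP5, a spindle protein within the lowered stretch of chromosome 14, at 11727 to 13006 against 28904 to 43904 (-1.61 ± 0.15, limma adjusted p = 6.33e-04). Among 24 CDK inhibitors, cyclins and CDK-activating kinase genes 4 fell and 0 rose, but 14 were above 0 and the median was 0.05, which turned to -0.14 on median-centred arrays. MNAT1 and CDKN3, a phosphatase of CDKs (-1.31 ± 0.14), lie on the same stretch, while RBL2 (p130; -0.96 ± 0.16) and E2F3 (-0.61 ± 0.13) do not. RBL2 was lost without the first TEM4-18 array or GS694.LAd (0.0553 and 0.0903) and E2F3 whichever array was left out (0.0646 to 0.177).

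Of the metallothioneins and zinc transporters 4 of 20 fell and 0 rose, with a median of -0.33. MT1H, MT1G, MT1F and MT1X, small metal-binding proteins, fell, with differences of -1.11, -0.99, -0.93 and -0.78. MT1H read 14958 to 17521 against 28486 to 40381 and MT1X 28499 to 34315 against 48490 to 59029, with no overlap. These genes are near-identical and were read by probe sets marked for cross-hybridisation, so the 4 values may not be separate measurements; MT1G was not called without such probe sets (adjusted p = 0.797). MT1F was lost without GS689.Li (0.053), and MT1X without GS689.Li or GS694.LAd (0.0587 and 0.0594). In hypoxia and glycolysis VEGFA and HIF1A, the oxygen-regulated factor that drives it, fell among 38, and 0 rose. HIF1A lies on chromosome 14 and read 31132 to 37228 against 49468 to 53422 (-0.64 ± 0.11, limma adjusted p = 0.0179). HIF1A was lost without GS689.Li, GS694.LAd or either TEM4-18 array (0.0527 to 0.105), and the median of the list was -0.05. On median-centred arrays 5 of that list fell.

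Enzymes that cap glycans and other lists held scattered calls. Of 27 sialyl- and fucosyltransferases ST3GAL1 rose (0.83 ± 0.14), and ST6GAL2 and FUT8 fell. FUT8, which adds core fucose and lies on chromosome 14, read 16194 to 18048 against 38982 to 54678 (-1.36 ± 0.14, limma adjusted p = 0.00111). TFF2, a trefoil peptide of mucus, rose (2.75 ± 0.50) while MUC5B fell among 24 mucin, trefoil and anterior-gradient genes. Among 25 cancer-testis antigens SPANXB1 (2.16 ± 0.43) and MAGEA1 (1.79 ± 0.36) rose from dim signals. KCTD1, a repressor of AP-2 factors, rose alone of 10 (1.09 ± 0.19), SLPI alone of 7 WAP-domain inhibitors (1.26 ± 0.27), PSPH of serine synthesis alone of 29 stress genes (1.56 ± 0.16; on median-centred arrays 3 others of the list fell) and MBD2 alone of 30 chromatin genes (0.56 ± 0.10). ELAVL2 and TUBB3 rose among 29 neural genes (0.72 ± 0.12 and 0.72 ± 0.14), and NDUFV2 of complex I fell among 46 oxidative phosphorylation genes (-0.57 ± 0.11). On median-centred arrays SLPI, MBD2, ELAVL2 and TUBB3 missed the threshold (adjusted p of 0.0652, 0.0949, 0.0504 and 0.081). Without cross-hybridising probe sets PSPH and MBD2 were at -0.029 and 0.18 (adjusted p of 0.964 and 0.879). Of these genes FUT8, PSPH and ST6GAL2 kept their calls whichever array was left out, but PSPH and ST6GAL2 lost them with the mean of their probe sets (adjusted p of 0.184 and 0.0923). TFF2, KCTD1 and ST3GAL1 were lost without GS689.Li and without GS694.LAd (0.0621 to 0.108) and each without 1 TEM4-18 array (0.0509 to 0.0576). NDUFV2 and TUBB3 were lost when any array but GS672.Ug or JD1203.Lu was left out (0.0572 to 0.157). SPANXB1, MAGEA1, SLPI, MBD2 and ELAVL2 were lost without GS694.LAd or either TEM4-18 array; without GS689.Li, all of these but SPANXB1 were lost, and without GS683.LALN all but ELAVL2. SPANXB1 and MAGEA1 were also lost without JD1203.Lu and SLPI without GS672.Ug. The adjusted p in these 5 genes ran from 0.0507 to 0.203. Of 40 ribosomal protein genes 0 were called in limma and 0 had an unadjusted p under 0.05. Of these 40, 2 lay lower with no overlap, beside 5.96% of all genes, and the median was -0.01.

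**Figure D5:**
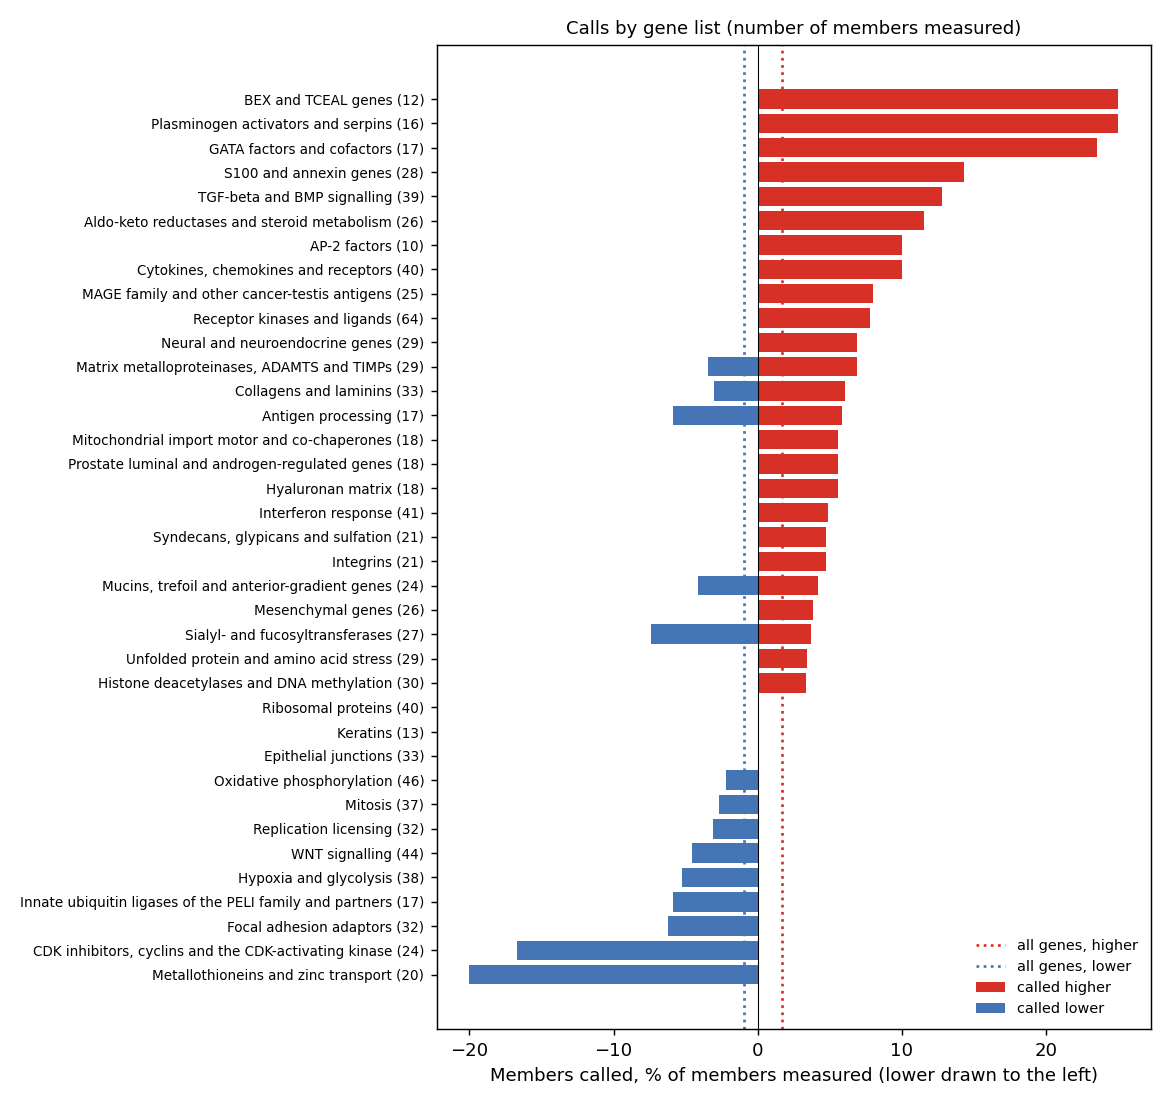
Share of the measured members called higher (red, to the right) or lower (blue, to the left) in each gene list of 10 or more measured members, in percent, with the number measured in brackets and dotted lines at the shares over all genes (1.67% and 0.961%). The bars rest on few genes: 3 of 12 in the BEX and TCEAL list and 4 of 16 in the serpin list, the longest to the right, and 4 of 20 in the metallothionein list, the longest to the left.

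Markers of other cell types were read beside these groups. Of 12 endothelial markers KDR and PECAM1 rose and 0 fell, and the summed signal of the list was 10501 to 13286 in the PC-3-descended sublines and 3401 to 6342 in the TEM4-18 lineage. KDR alone gave 6380, 4792 and 4535 of the sums in the PC-3-descended sublines. PECAM1 read 1372, 1635 and 1903 against 604 to 828. ROBO4, another marker, read 1835, 3307 and 2220 against 717 to 1592, with no overlap and no call (1.17 ± 0.30, limma adjusted p = 0.0858). The defining genes CDH5 and VWF were dim or nearly so, with signals of 5.25 to 17.2 and 71.8 to 91.2 in the PC-3-descended sublines, and 7 of the 12 markers had a mean signal under 160.5. The part of other cells in the KDR and PECAM1 calls was not tested. Of 8 hepatocyte markers SERPINA1 alone was called, and GS689.Li, from liver, was not the highest in SERPINA1. The summed signal of the list was 3162 to 5586 against 1041 to 1841. Most of it in the PC-3-descended sublines was SERPINA1 (2537, 2860 and 3796), and the median difference of the list was -0.04. Lists for fibroblasts, leukocytes, erythroid cells, adrenal cortex, kidney tubule, lung epithelium and adipocytes had 0 calls in limma, beside 2 fibroblast and 2 adrenal cortex genes higher and 0 of the others at an unadjusted p under 0.05. Over all 19775 genes 2120 were higher at that limit, and these lists are short.

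Of the 95 named genes that were called, 40 kept the call whichever array was left out. Among the 31 with the largest differences or widest gaps 21 did. Leaving out GS694.LAd ended 50 of the 95 calls, GS689.Li 47, GS672.Ug 12, the first and second TEM4-18 arrays 35 and 37, GS683.LALN 22 and JD1203.Lu 10. With JD1203.Lu counted by its source name, 29 of the 31 missed the threshold, all but PLD5 and AKR1C3.

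The choice of probe set mattered as well. A fit on the mean of a gene's probe sets was adjusted over 19775 genes instead of 54613 probe sets, so the test itself changed too. With that mean in place of the brightest probe set, 31 of the 95 named calls missed the threshold. Among the genes of largest difference these were WDR72 (2.53), ITM2A (3.35), LGR5 (-2.78), EDN1 (-1.07), ST6GAL2 (-1.52) and PCNX4 (-0.81). VEGFA missed it narrowly (-0.77, adjusted p = 0.0527), as did ANXA6 (0.76, 0.0513). PLAT has only 1 probe set and kept its difference of 2.80. Its call (adjusted p = 0.0517) was thus lost through the changed fit and adjustment, not through the choice of probe set. In the lists, AKR1C1, AKR1C2, GATA6, MTA1, SMAD1, TGFB3, EPHA3, HS3ST1, ITGB4, ADAMTS6, MMP14, ADAM17, SERPINE2, MCM4, RBL2, E2F3, TAP2, KCTD1, TUBB3, MT1G, PSPH and MBD2 were lost too. Without probe sets marked for cross-hybridisation, 13 of the 76 calls that could still be read were lost, ITM2A (adjusted p = 0.095), EDN1 (0.0539), ADAM17 (0.191) and SMAD1 (0.104) among them besides those given above.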

How the data were processed

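Total RNA of 7 cultures was labelled with biotin and hybridised to 1-colour Affymetrix arrays. The deposited values are linear intensity values that the authors made with MAS5, per the submitters' processing notes, in a version not given in the sources used here. Detection calls were not used here. The number of arrays limits the precision. Of 54675 probe sets 62 controls were left out, and 54613 were fitted with lmFit and eBayes (intensity trend, 2-sided tests) of limma 3.58.1 in R 4.3.3, on log2(signal + 46.942), the offset being the 20th percentile of all values. No further scaling was applied. Benjamini-Hochberg adjustment ran over all 54613, with calls under 0.05. In the probe table given with the series 41091 have 1 gene symbol, 1801 several and 11721 none; 41037 of the first matched the RefSeq table of GRCh38.p14, and 19735 of 19775 genes were placed. Each gene took its probe set with the highest mean. The fit was tested on simulated data.

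Named were the 15 genes of largest difference each way among those called without overlap whose higher group reached the 40th percentile signal, the 5 of widest gap each way, and up to 5 called members per list (3 of lowest p where none was called). The comparison, the 39 gene lists and the 11 marker lists were chosen with earlier results of these data known. Alternatives covered offset, filter, scaling, trend, probe sets, averaged pairs, a 3-group model, the grouping of JD1203.Lu, chromosome 14 and each array left out.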

Additional observations from a re-analysis of the deposited data

Results flagged for a closer look

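Among the 104 named genes, 10 (9.62%) had an array of the TEM4-18 lineage that lay far from the other 3, with a gap to the nearest of them, divided by the group's range, above Dixon's critical value. Chance alone passes this limit in about 1 of 20 such groups, and the 3 PC-3-descended arrays were too few for it. JD1203.Lu was the highest of its lineage, towards the other group, in PLD5 (0.84), GATA2 (0.904) and AKR1C1 (0.851), and the highest, away from the other group, in TRIP6 (0.873) and MT1G (0.836). GS683.LALN was the highest in GALC (0.834) and the lowest in BEX1 (0.868). The second TEM4-18 array was the highest in WDR72 (0.951), though its signal of 176 is near the dim range. The first TEM4-18 array was the lowest in CXCL8 (0.968) and HIF1A (0.882).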

How the results depend on the processing

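Counts are given as higher and lower calls, beside 330 and 190. Without the intensity trend there were 102 and 43, with GS689.Li and GS694.LAd averaged 112 and 79, with the TEM4-18 arrays averaged 167 and 112, and with both pairs averaged 46 and 29, while 5275 genes then had no overlap instead of 3104. With JD1203.Lu counted by its source name there were 8 and 0. Without chromosome 14 there were 194 and 79, all among the 251 and 106 called on other chromosomes, so some of those missed the threshold as well. Median centring gave 477 lower calls and, with a filter at the 40th percentile, chosen after seeing the data, 669. Leaving out 1 array gave 98 to 484 higher and 73 to 326 lower calls and 3791 to 6028 genes without overlap. Per array left out, there were 160 and 110 without the first TEM4-18 array, 154 and 105 without the second, 119 and 77 without GS689.Li, 98 and 73 without GS694.LAd and 484 and 326 without GS672.Ug. Filters at the 40th and 60th percentile, no offset, an offset at the median, quantile normalization and a 3-group model each stayed within 1.5 times of both counts. The sign turned for MBD2 with the mean of its probe sets (-0.055, limma adjusted p = 0.936). It also turned without cross-hybridising probe sets for PSPH (-0.029, limma adjusted p = 0.964) and RPS9, uncalled throughout (0.149, limma adjusted p = 0.895). In named genes, 585 of the values under an alternative lost their call and 9 gained one. The causes were not tested. No paired analysis was possible because the replicate numbers only count arrays within each group and match no arrays across groups. Dim probe sets limit the fold changes of the most raised genes, since the offset shrinks them.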
